A study of Arabidopsis thaliana with 9 samples.

Results

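FIT (AT2G28160) and the 4 basic helix-loop-helix factors of subgroup Ib, bHLH38 (AT3G56970), bHLH39 (AT3G56980), bHLH100 (AT2G41240) and bHLH101 (AT5G04150), are transcription factors of the Arabidopsis thaliana iron deficiency response. They were chosen by locus, with earlier results of these data known, and all 5 were found among the 32833 loci of the deposited expression table. The table holds 3 groups of 3 RNA sequencing libraries: wild type (Col-0) whole seedlings, ntrc mutant whole seedlings, and young rosette leaves of ntrc adults. Seedlings were harvested at 6 days from MS, a mineral salt medium, under continuous light, and adults at 8 weeks from soil under a short photoperiod, with a light intensity of 125 µE per square metre and second at either age. The labels name neither the ntrc allele nor the number of seedlings in a library, and each adult library pools leaves of several plants. ntrc plants lack normal levels of NTRC, a plastid protein carrying an NADPH-thioredoxin reductase and a thioredoxin in a single chain, and the wild type at the adult stage is not analysed here.

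In the root of a plant short of iron, FIT pairs with a subgroup Ib factor, and the dimer switches on genes for iron reduction and uptake, among them the iron transporter IRT1. Factors of another branch, subgroup IVc with URI, act above and activate subgroup Ib, the repressor PYE and the small IMA peptides, while the ubiquitin ligase BTS removes IVc factors and so limits the response. FIT protein is bound, modified and degraded by many partners, so its transcript level is not a measure of its activity. Roots of the seedlings were not separated from shoots, so fewer root cells and less RNA per cell cannot be told apart in these values.

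In RefSeq's TAIR10.1 annotation, matched by locus identifier, FIT lies at chr2:12004658-12006276 on the plus strand and bHLH100 at chr2:17198037-17199454 on the minus strand. bHLH101 lies at chr5:1138410-1139633 on the minus strand. bHLH38 (chr3:21084035-21085245) and bHLH39 (chr3:21086390-21087710) are minus-strand neighbours with 1144 bases and no other annotated gene between them. Their coding sequences were alike at 84.8% of aligned bases. The longest run of letters shared by those coding sequences had 34 bases, and bHLH39 shared a run of 32 bases with bHLH100. Reads short enough to fall inside such runs could not be assigned, and the sources used here do not state read length. FIT and bHLH101 shared no run over 13 bases with another member.

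The 250 bases before the annotated start of each subgroup Ib gene are shown because these genes moved together across the libraries. They come from RefSeq's TAIR10.1 genome and run 5′ to 3′ on the gene's own strand, the minus strand in all 4 cases. Capitals mark E-boxes (CANNTG), the general binding letters of bHLH factors, which include the G-box CACGTG. Both motifs are palindromes and so were searched on both strands at once. The windows are chr3:21085246-21085495 for bHLH38, chr3:21087711-21087960 for bHLH39, chr2:17199455-17199704 for bHLH100 and chr5:1139634-1139883 for bHLH101, and none overlaps an exon of another gene.
bHLH38: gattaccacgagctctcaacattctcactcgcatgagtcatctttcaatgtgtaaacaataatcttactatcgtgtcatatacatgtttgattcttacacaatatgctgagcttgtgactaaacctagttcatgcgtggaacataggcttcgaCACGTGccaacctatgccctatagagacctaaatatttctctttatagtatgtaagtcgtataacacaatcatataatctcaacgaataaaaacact
bHLH39: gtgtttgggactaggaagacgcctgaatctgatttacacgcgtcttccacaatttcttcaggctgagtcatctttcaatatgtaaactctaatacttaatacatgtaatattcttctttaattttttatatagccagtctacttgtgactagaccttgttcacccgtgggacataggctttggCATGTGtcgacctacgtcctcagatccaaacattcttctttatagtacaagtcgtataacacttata
bHLH100: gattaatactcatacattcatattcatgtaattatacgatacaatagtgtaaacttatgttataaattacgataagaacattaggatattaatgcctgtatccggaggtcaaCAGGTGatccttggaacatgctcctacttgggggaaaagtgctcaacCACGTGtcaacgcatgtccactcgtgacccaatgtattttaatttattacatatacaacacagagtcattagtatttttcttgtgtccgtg
bHLH101: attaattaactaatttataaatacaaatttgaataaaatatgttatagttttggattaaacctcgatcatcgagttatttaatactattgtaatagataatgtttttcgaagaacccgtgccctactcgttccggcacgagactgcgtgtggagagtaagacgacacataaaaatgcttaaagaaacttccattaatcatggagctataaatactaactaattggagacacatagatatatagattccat

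A G-box lay 97 to 92 bases before the start of bHLH38 and 91 to 86 bases before that of bHLH100, and no G-box was found in the windows of bHLH39, bHLH101 or FIT. Of 27443 protein-coding genes with a window of the same length, 6.49% held a G-box and 55.3% an E-box. The single E-box of bHLH39 lay 67 to 62 bases before its start, and the window of bHLH101 held none. The windows of the neighbours bHLH38 and bHLH39 also shared 5 runs of at least 10 bases in the same order. The longest, tgagtcatctttcaat, began 217 bases before the start of bHLH38 and 187 before that of bHLH39. The next, aagtcgtataacac, began 44 and 19 bases before them. No other pair among the 5 genes shared a run of that length. Among the pathway lists described after the members, a G-box was found for 2 of 13 regulators above or beside them, BTS and bHLH11, and for 0 of 17 targets. These matches describe the letters and do not show binding.

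Expression was deposited on a log2 scale, read as log2(FPKM + 1), where FPKM is fragments per length of transcript and per library total. Sequencing depth was unknown, so precision rests on the spread of 3 libraries. NTRC itself (AT2G41680) checked the genotypes: it read 7.03 to 7.46 in wild type seedlings, 4.12 to 4.36 in ntrc seedlings and 4.01 to 4.10 in adult ntrc leaves. Root markers, genes of root hairs, endodermis and other root cells, reached at least 1 FPKM for 17 of 18 genes in each seedling library, the exception being the nitrate transporter gene NRT2.1, and for 1 of 18, SCR, in each adult library.

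All 5 regulators were expressed in seedlings, and each stood lower in ntrc in 3 of 3 library pairs, by amounts that varied from library to library. Pairs here are libraries of equal number, a pairing read from the values and not given by the labels. For each gene the highest ntrc library overlapped the wild type range. Log2 fold changes were -0.96 for FIT and -2.50 to -1.65 for the subgroup Ib genes, and none passed the test over all genes.

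**Figure D1:**
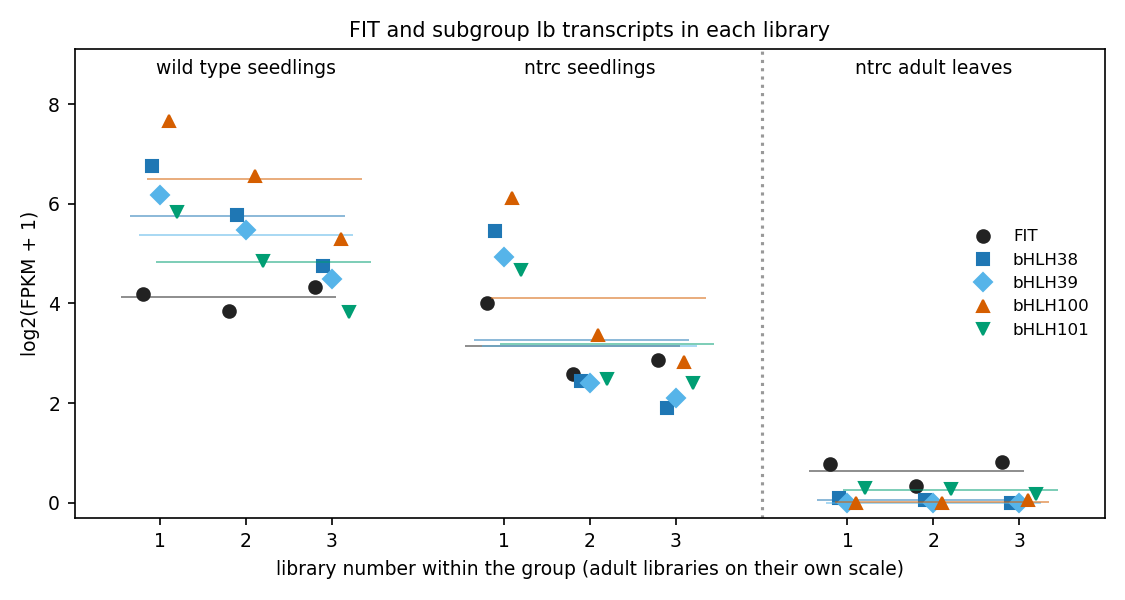
Level of each gene, as log2(FPKM + 1), in the 9 libraries, with horizontal lines at the mean of each group of 3; adult libraries, right of the dotted line, were scaled separately. The subgroup Ib genes ran from 3.83 to 7.66 in wild type seedlings, from 1.90 to 6.12 in ntrc seedlings and from 0 to 0.31 in adult leaves.

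In libraries 1 to 3 of each genotype, the order used for values below, FIT, the partner shared by the subgroup Ib factors, read 4.19, 3.84 and 4.33 in wild type, against 4.01, 2.58 and 2.87 in ntrc libraries 1 to 3, on the log2(FPKM + 1) scale. The wild type libraries spanned 0.49, ntrc library 1 lay among them, and ntrc libraries 2 and 3 lay below. The mean was 4.12 ± 0.25 in wild type and 3.16 ± 0.76 in ntrc (mean ± SD, n = 3 each). That is 16.6 ± 2.93 and 8.82 ± 5.53 FPKM. The log2 fold change was -0.96 (SE 0.39, 95% interval -1.92 to -0.0054, limma), or 1.95-fold lower on the log2(FPKM + 1) scale. The ratio of mean FPKM, wild type over ntrc, was 1.88.

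bHLH38 read 6.75, 5.78 and 4.75 in wild type, against 5.45, 2.44 and 1.90 in ntrc libraries 1 to 3. ntrc library 1 stood above wild type library 3, and the other ntrc libraries stood below all of wild type. In FPKM these values run from 25.8 to 107 in wild type and from 2.72 to 42.6 in ntrc. The means were 5.76 ± 1.00 and 3.26 ± 1.91 (log2, mean ± SD, n = 3 each), with a log2 fold change of -2.50 (SE 1.05, 95% interval -5.09 to 0.092, limma), or 5.65-fold lower on the log2(FPKM + 1) scale. The ratio of mean FPKM, wild type over ntrc, was 3.75.

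bHLH39, its neighbour on chromosome 3, read 6.17, 5.47 and 4.48 in wild type, against 4.93, 2.40 and 2.11 in ntrc, in the same library order. Its libraries ranked within each genotype as those of bHLH38 did, over a smaller range. The means were 5.37 ± 0.85 and 3.15 ± 1.55 (log2, mean ± SD, n = 3 each), with a log2 fold change of -2.23 (SE 0.86, 95% interval -4.35 to -0.10, limma).

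bHLH100 had the highest level of the 5 genes in every seedling library except ntrc library 3, where FIT (2.87) stood just above it. It read 7.66, 6.57 and 5.29 in wild type, which is 201, 93.8 and 38.1 FPKM, and 6.12, 3.37 and 2.82 in ntrc, which is 68.5, 9.30 and 6.08 FPKM. Wild type library 1 thus held 5.28 times the FPKM of wild type library 3, a spread within 1 genotype. The log2 fold change was -2.40 (SE 1.03, 95% interval -4.96 to 0.15, limma).

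bHLH101 read 5.83, 4.85 and 3.83 in wild type, against 4.67, 2.49 and 2.41 in ntrc. Here too ntrc library 1 lay inside the wild type range and libraries 2 and 3 below it. It had the smallest fold change of the subgroup, -1.65 (SE 0.79, 95% interval -3.60 to 0.31, limma).

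Within single libraries the order of the genes was steadier than their group means, whose spreads overlapped. In all 3 wild type libraries and in ntrc library 1 the order was bHLH100, bHLH38, bHLH39, bHLH101. bHLH100 exceeded bHLH38 by 0.54 to 0.93 on the log2 scale in all 6 seedling libraries. bHLH38 exceeded bHLH39 by 0.26 to 0.58 in the wild type libraries and by 0.51 and 0.039 in ntrc libraries 1 and 2, and lay below it by 0.21 in ntrc library 3. bHLH101 lay 0.91 to 0.94 below bHLH38 in wild type, and 0.047 and 0.51 above it in ntrc libraries 2 and 3. The mean of the 4 subgroup Ib genes lay above FIT by 2.41, 1.82 and 0.26 in wild type libraries 1 to 3 and by 1.28 and 0.095 in ntrc libraries 1 and 2. In ntrc library 3 the subgroup mean minus FIT was -0.56. Levels of the subgroup relative to its partner thus varied by more than 2 log2 units within wild type.

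None of the 5 genes passed over the 18818 genes tested (limma, Benjamini-Hochberg adjusted p = 0.947 for each, without a block). All 5 had passed the filter of 1 FPKM in 3 of 6 libraries. In that fit 0.0266% of genes passed. At an unadjusted p below 0.05 there were 2 of the 5, FIT and bHLH39, against 5.01% of all genes. With the library number as a block, again none passed (limma, Benjamini-Hochberg adjusted p = 0.121 for bHLH101, 0.162 for bHLH100, 0.237 for bHLH39, 0.279 for bHLH38 and 0.348 for FIT), where 0.388% of genes did. In the blocked fit all 5 had an unadjusted p below 0.05, as did 11.6% of all genes, and the 95% intervals ran from -1.77 to -0.16 for FIT, -4.16 to -0.83 for bHLH38, -3.57 to -0.89 for bHLH39, -3.51 to -1.29 for bHLH100 and -2.34 to -0.95 for bHLH101. An exact two-sided permutation test over the 6 libraries gave p = 0.2 for each gene, where 0.1 is the smallest that 3 against 3 allows. By size, 4 tested genes had a more negative fold change than bHLH38, 5 than bHLH100, 10 than bHLH39, 26 than bHLH101 and 109 than FIT. Since the 5 genes were chosen with earlier results of these data known, these shares and ranks are a description only.

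The difference was smallest in pair 1 for every member. Pairs 1 to 3 gave -0.17, -1.26 and -1.46 for FIT and -1.30, -3.34 and -2.85 for bHLH38. They gave -1.24, -3.06 and -2.38 for bHLH39, -1.54, -3.20 and -2.47 for bHLH100 and -1.15, -2.36 and -1.43 for bHLH101. All 5 genes were lower in 3 of 3 pairs, as were 15.2% of tested genes. The groups were separate, with ntrc lower, for 0 of the 5 genes and for 4.37% of tested genes. Pair 2 gave the largest difference for each subgroup Ib gene, and pair 3 for FIT.

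**Figure D2:**
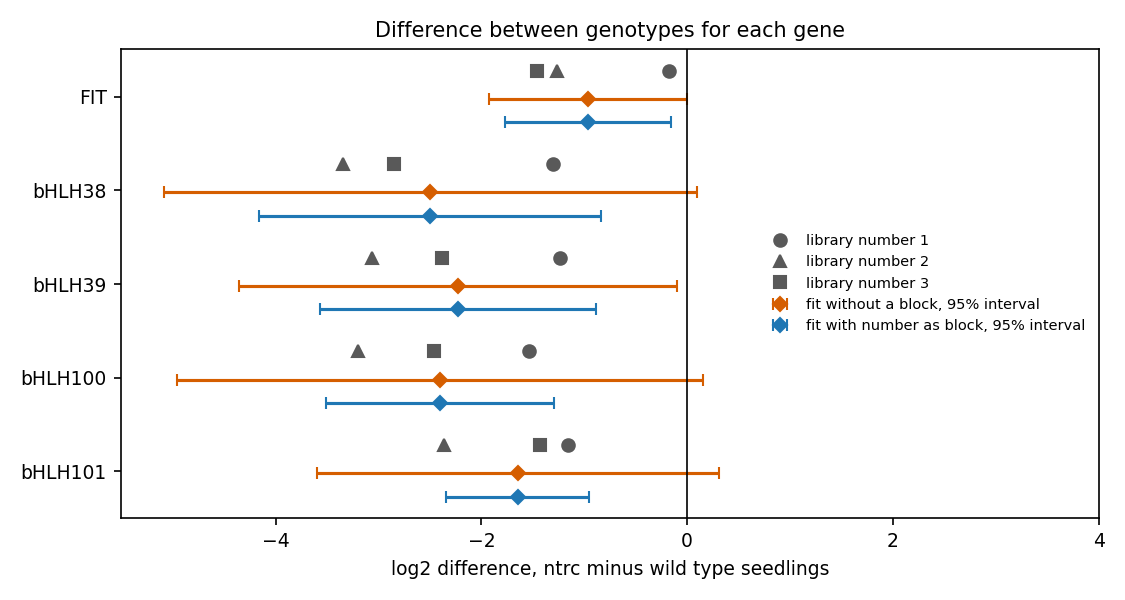
Log2 difference between ntrc and wild type seedlings for each gene: grey symbols are the 3 library pairs by number, and diamonds are limma fold changes with 95% intervals without (orange) and with (blue) the number as a block. Library number 1 gave the smallest difference for each gene, and without a block the intervals of bHLH38, bHLH100 and bHLH101 cross 0.

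Subgroup Ib transcripts varied widely within each genotype, and FIT varied less in wild type. The SD of bHLH38 among the 3 wild type libraries, 1.00 on the log2 scale, was larger than that of 99.0% of tested genes, whose median SD was 0.15. The corresponding shares were 98.5% for bHLH39, 99.5% for bHLH100 and 99.0% for bHLH101, against 77.6% for FIT. Among the ntrc libraries they were 98.4% for FIT and at least 99.5% for each subgroup Ib gene. Each of the 4 subgroup genes was highest in wild type library 1 and lowest in library 3, an order found in 17.9% of tested genes, and FIT was not. For the 4 subgroup genes library 1 exceeded library 3 by 1.69 to 2.37, whereas 2.24% of tested genes had a gap of 1 or more. FIT had -0.14.

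Root markers ran the other way among the wild type libraries. Their summed level was 167, 190 and 276 FPKM in wild type libraries 1 to 3, and 226, 211 and 240 FPKM in ntrc libraries 1 to 3, inside the wild type range. Of the 17 tested markers, 14 had a positive and 3 a negative fold change, with a median of 0.12, and ESB1, an endodermal gene, had the largest in size at -0.73. EXPA18, MYB36 and PRP3 had 0.37, 0.34 and 0.32, and none of the 17 passed (limma, Benjamini-Hochberg smallest adjusted p = 0.947), with 1 at an unadjusted p below 0.05, against 5.01% of tested genes. Relative to the mean of the root markers, FIT stood at 1.19, 0.72 and 0.79 in wild type, against 0.66, -0.66 and -0.51 in ntrc libraries 1 to 3 (log2). On this measure the groups were separate only by the small gap between ntrc library 1 and wild type library 2. By its own level FIT overlapped between the groups, and the share of tested genes separate on this measure was not computed. The subgroup Ib mean stood at 3.60, 2.54 and 1.05 in wild type, against 1.94, -0.56 and -1.07 in ntrc, and the groups overlapped. The part of root content in the differences of the 5 genes was not tested. Shoot markers summed to between 29937 and 40431 FPKM in wild type and between 30793 and 37107 in ntrc. Of 8 shoot markers, 4 were higher and 4 lower, with a median of -0.014. Over all tested genes, 9644 of 18818 had a positive fold change. The largest in size were LHCB2.2 (0.40), LHCB2.1 (0.38), PSBO1 (0.18) and RBCS1A (-0.086). No shoot marker passed (limma, Benjamini-Hochberg smallest adjusted p = 0.947 without and 0.173 with the block).

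Among 13 regulators placed above or beside FIT and subgroup Ib, fold changes ran from -2.25 to 0.44. The list mixes layers of the response, since PYE and the IMA genes are themselves activated alongside subgroup Ib. The 5 activators, the IVc factors bHLH34, bHLH104, ILR3 and bHLH115 with URI, lay between -0.017 and 0.11. The IMA peptide genes, whose products raise the response, had -2.25 for IMA2 (AT1G47395), -1.90 for IMA1 (AT1G47400) and -1.78 for IMA3 (AT2G30766). BTS, which targets IVc factors for degradation, had -1.02. IMA2 read 6.40, 5.29 and 4.02 in wild type, against 4.85, 2.32 and 1.80 in ntrc libraries 1 to 3, ranking the libraries as bHLH38 did. The repressor PYE, which is activated alongside subgroup Ib, read 4.06, 3.67 and 3.16 in wild type, against 3.60, 2.87 and 2.61 in ntrc, the same ranking over a narrower range. Of 13 regulators 8 had a negative fold change, and 7 were lower in 3 of 3 pairs, with a median of -0.45 where all tested genes had 0.0037. Over all tested genes, 9174 of 18818 had a negative fold change and 15.2% were lower in 3 of 3 pairs. None passed in either fit (limma, Benjamini-Hochberg smallest adjusted p = 0.947 without and 0.0762 with the block), and 2 and 8 had an unadjusted p below 0.05, against 5.01% and 11.6% of tested genes. The 2 without the block had opposite signs: bHLH11 (AT4G36060), a repressor in the same response, had 0.44 (95% interval 0.089 to 0.79) and BTSL2 (AT1G18910), a ubiquitin ligase related to BTS, had -0.45. Of the 8 with the block, all but bHLH11 had negative fold changes. bHLH11 read 1.24, 0.82 and 1.18 in wild type, against 1.45, 1.47 and 1.65 in ntrc, and its groups did not overlap. Its levels were low, from 0.771 to 2.15 FPKM, and the share of tested genes separate with ntrc higher was not computed.

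Genes for proteins known to bind or modify FIT had fold changes on either side of 0. Of 12, 10 were tested, as bHLH18 and bHLH19 stayed below the filter; 5 were positive and 5 negative, with a median of -0.0091. CIPK11 (AT2G30360), a kinase that phosphorylates FIT, had -1.71 and read 2.83, 2.16 and 2.38 in wild type, against 0, 0 and 2.24 in ntrc libraries 1 to 3. Its ntrc libraries differed in another way than those of FIT, since library 3 was the high one. ZAT12, a zinc finger protein that binds FIT, had -1.10 and read 6.75, 4.76 and 5.37 in wild type, against 6.08, 3.43 and 4.08 in ntrc, with library 1 highest in both genotypes. GAI, a DELLA protein, had 0.29 and bHLH20, a subgroup IVa factor that promotes loss of FIT protein, -0.22. None passed (limma, Benjamini-Hochberg smallest adjusted p = 0.947 without and 0.0557 with the block, for ZAT12), and 2 and 4 had an unadjusted p below 0.05, with both signs among them in each fit. Of tested genes, 5.01% and 11.6% lay below it.

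Targets of FIT with subgroup Ib were lower in ntrc for 15 of 17 genes by fold change, 12 of them in 3 of 3 pairs, with a median of -0.82. Over all tested genes, 9174 of 18818 had a negative fold change and 15.2% were lower in 3 of 3 pairs, with a median of 0.0037. The lists were chosen with earlier results of these data known. The fold changes largest in size were -2.95 for S8H and -1.63 for CYP82C4, enzymes of coumarin synthesis, -2.23 for MYB72, a regulator of coumarin secretion, and -1.44 for F6'H1, the enzyme at the entry to scopoletin. The groups were separate with ntrc lower for 3 of the 17, and for 4.37% of tested genes. None passed (limma, Benjamini-Hochberg smallest adjusted p = 0.947 without and 0.0804 with the block), and 8 and 11 had an unadjusted p below 0.05, all with negative fold changes except NRAMP1 (0.20) in the blocked fit. Over all tested genes the shares below 0.05 were 5.01% without and 11.6% with the block. Between wild type libraries 1 and 3 these targets differed by -0.36 to 0.85, with a median of 0.30, below each subgroup Ib gene (1.69 to 2.37). FIT had -0.14, and the median of all tested genes was -0.032. A gap of 1 or more was found in 2.24% of tested genes, so lying below subgroup Ib does not set the targets apart. In ntrc, library 1 exceeded both other libraries for 14 of 17 targets, as it did for all 5 members and for 33% of tested genes.

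**Figure D3:**
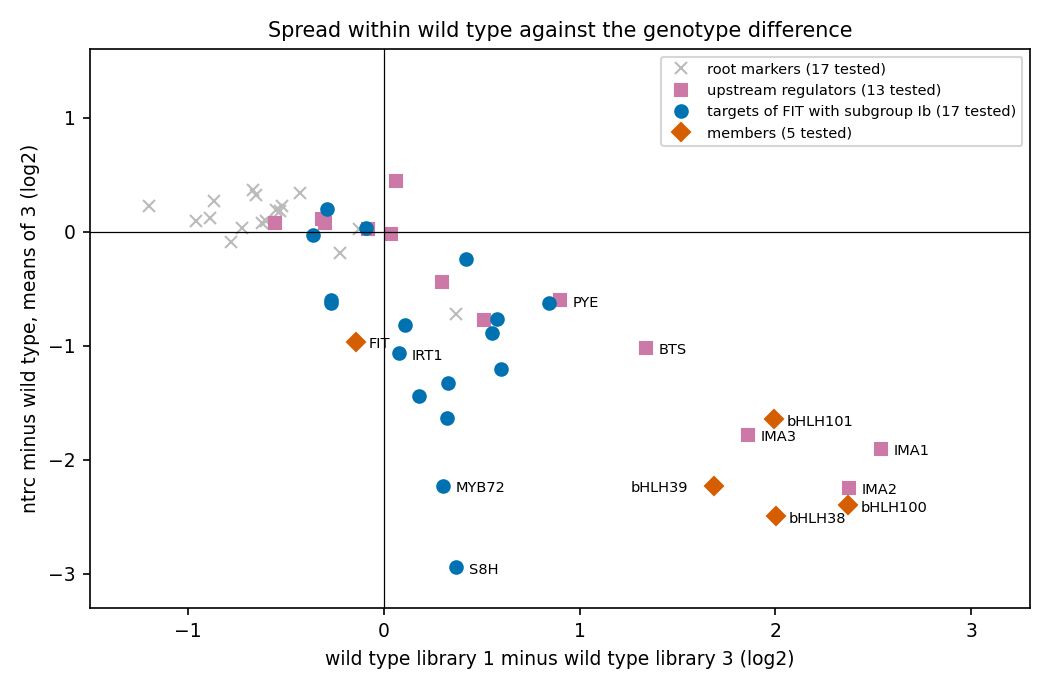
Each point is a tested gene: the horizontal axis is wild type library 1 minus wild type library 3, the vertical axis the mean ntrc minus mean wild type difference, both in log2. The subgroup Ib genes and IMA1 to IMA3 lie at 1.69 to 2.54 on the horizontal axis, while FIT and its targets lie between -0.36 and 0.85, with vertical values of -2.95 to 0.20.

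Likeness was measured as the root mean square difference of log2 values over the 6 seedling libraries, after each gene's own mean was subtracted. It uses the genotype difference as well as the spread within genotypes, and with 6 libraries close neighbours are a description only. For FIT the nearest of 18817 other tested genes was IRT1 (AT4G19690), the iron importer of root epidermis, at 0.12. IRT1 read 7.34, 7.05 and 7.26 in wild type, against 7.06, 5.44 and 5.94 in ntrc libraries 1 to 3. The next were AT2G07850, annotated as a long non-coding RNA, at 0.13, and AT5G62420, annotated as an oxidoreductase, at 0.14.

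The subgroup Ib genes had a different set of neighbours. bHLH38 was nearest to bHLH100 (0.14), IMA2 (0.23) and bHLH39 (0.27). bHLH39 was nearest to IMA2 (0.21), bHLH100 (0.25) and bHLH38 (0.27). bHLH100 was nearest to IMA2 (0.11), bHLH38 (0.14) and AT1G13609 (0.25), annotated as a defensin-like protein, which read 6.62, 5.87 and 4.28 in wild type, against 5.27, 2.18 and 2.40 in ntrc. bHLH101 stood a little apart, with IMA3 (0.23), AT4G36700 (0.24), annotated as a cupin protein, and AT2G14247 (0.25) nearest. bHLH39 was its nearest subgroup member at 0.35, rank 6. From FIT the subgroup genes lay 0.79 (bHLH101) to 1.22 (bHLH38) away, where 0.79 ranked 16294 among 18817 genes. The measure depends on the size of the variation, so that most genes, being flat, lie nearer to FIT than the subgroup does. Most tested genes, IRT1 among them, thus lay nearer to FIT than the factors it pairs with did, so that comparison does not set IRT1 apart.

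**Figure D4:**
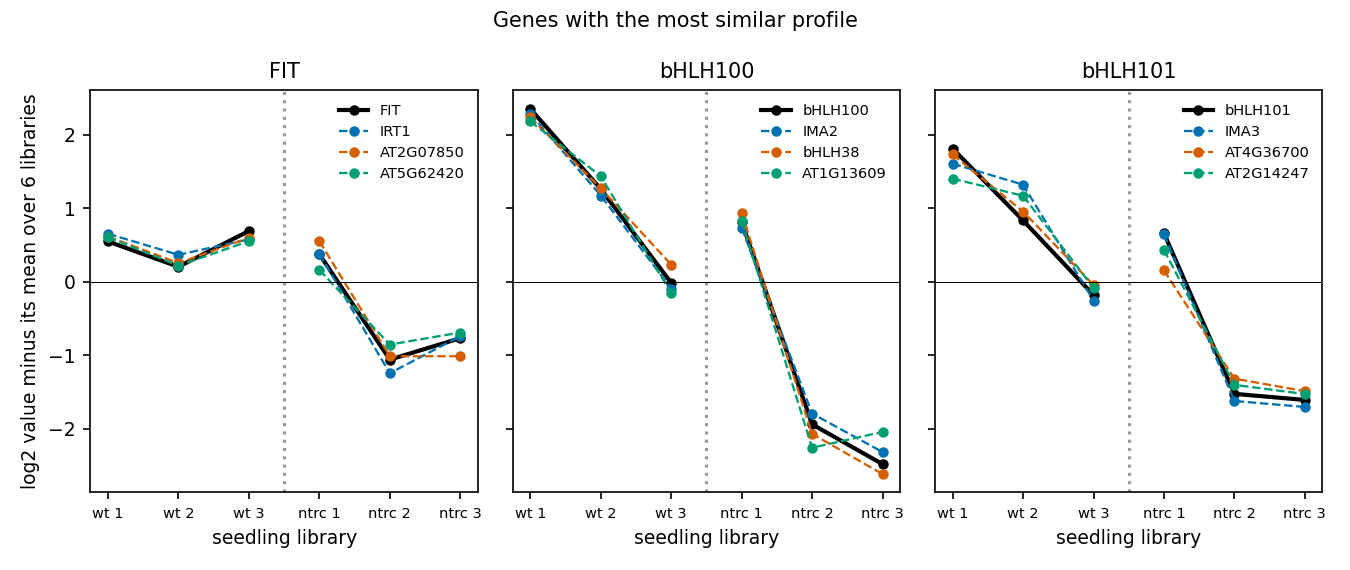
Log2 value minus the gene's mean over 6 seedling libraries for FIT, bHLH100 and bHLH101 (black) and the 3 tested genes nearest to each (dashed); lines join libraries of a genotype only to guide the eye. FIT and IRT1 span 0.49 and 0.29 across wild type (wt) and are low in ntrc libraries 2 and 3. bHLH100 and IMA2 span 2.37 and 2.38 among the wild type libraries.

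In adult ntrc leaves the 5 transcripts were near or at 0. FIT read 0.77, 0.34 and 0.81 in libraries 1 to 3 (log2), which is 0.707, 0.262 and 0.759 FPKM. bHLH39 was listed at 0 in all 3, bHLH38 read 0.10, 0.057 and 0, bHLH100 was listed at 0 in libraries 1 and 2 and read 0.063 in library 3, and bHLH101 read 0.31, 0.27 and 0.19. FIT was the highest of the 5 in each adult library, ahead of 49.5%, 41.5% and 50.6% of all loci. In ntrc seedling libraries 1 to 3 it stood ahead of 79.1%, 59.9% and 63.4%, and in wild type seedlings of 76.9% to 82.8%. bHLH100 stood ahead of 95.3%, 70.2% and 62.8% of loci in ntrc seedling libraries 1 to 3, and of 91.2% to 98.7% in wild type seedlings. Between 25.8% and 28.9% of loci were listed at 0 per adult library. Root markers summed to 5.59 to 5.89 FPKM there, with 8 to 12 of 18 listed at 0, and IRT1 was listed at 0 in libraries 1 and 2 and read 0.0018 in library 3, while IMA3 read 1.73, 2.64 and 2.13. Stage, tissue, library kit and scaling differ together between adult and seedling libraries and cannot be told apart, so no test was made between them. Against wild type seedlings the genotype differs as well.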

How the data were processed

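RNA sequencing was measured in 9 libraries, 3 per group. The authors deposited 1 table on a log2 scale, read as log2(FPKM + 1) from its name and values; log base and pseudocount are not given in the sources used here. FastQC, HISAT2, StringTie and TAIR10 are named in the submitters' processing notes, without versions or settings. Adult libraries were made with a ribosomal depletion kit and seedling libraries with an mRNA kit, per the labels' protocols. The upper quartile was 3.70 in each seedling and 2.44 in each adult library, so stages had been scaled separately and tests stayed within seedlings. Depth is unknown. Library totals were 602924 to 727692 FPKM, and no 2 libraries were identical. Where nothing says that libraries came from separate cultures, p-values measure the spread between these libraries.

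The ntrc and wild type seedlings were compared by limma 3.58.1 under R 4.3.3 (trend and robust moderation, two-sided, Benjamini-Hochberg over all genes tested, threshold 0.05), on genes that reached 1 FPKM in 3 or more of 6 libraries. Fold changes are on the log2(FPKM + 1) scale and understate changes of low genes. For each of the 5 members the ratio of mean FPKM was smaller than the fold on that scale. The fit was run on simulated data to check the sign of recovered changes. Those data had no effect of library number, so they do not give the error rate in these libraries. Deviations from group means correlated at 0.506, 0.406 and 0.278 between libraries of equal number, against -0.388 to 0.115 otherwise, so libraries were also paired by number, a pairing read from the values. Alternatives were the block, a pseudocount of 0.1, no filter, other scalings, other moderation and leaving out libraries or pairs.

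Named genes were the members, NTRC, the 4 genes of each list with the largest fold change in size, any list gene that passed, and the 3 genes nearest to each member. The activators, bHLH11, BTSL2, NRAMP1, PYE, BTS, bHLH18, bHLH19, NRT2.1, SCR and IRT1 in leaves were named after their values were seen. Members and all 5 lists (68 genes) were chosen with earlier results of these data known. Sequences and annotated products came from RefSeq's TAIR10.1, matched by locus; the deposited table holds no coordinates.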

Additional observations from a re-analysis of the deposited data

How the results depend on the processing

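Of 75 alternative values of the 5 fold changes, none changed sign and 70 stayed on the same side of the threshold. Part of this was fixed in advance, since the block, no filter and other moderation leave the fold change itself as it was. Nor could leaving out a pair from the blocked fit reverse the sign of genes lower in every pair. In the fit with a replicate block, 30 genes were higher and 43 lower in ntrc over all genes, against 1 and 4 without it. In blocked fits without pair 1, 2 or 3 these counts were 21, 6 and 28 higher and 51, 23 and 43 lower. Those fits tested 18323, 18451 and 18425 genes. Each rests on 2 pairs, too few to estimate the spread of a single gene well. With a pseudocount of 0.1 and no block, 0 genes were higher and 2 lower. Leaving out 1 library gave 0 to 2 higher and 1 to 22 lower, the last without ntrc library 1. In the paired fit without pair 1 the log2 fold changes of FIT (-1.36, adjusted p = 0.0326), bHLH38 (-3.10, 0.0149), bHLH39 (-2.72, 0.0277) and bHLH100 (-2.83, 0.0277) passed, and without pair 2 that of bHLH101 (-1.29, 0.0240), by limma with Benjamini-Hochberg adjustment. Pair 1 had the smallest difference for each of the 5 genes, so leaving it out favours the calls of FIT, bHLH38, bHLH39 and bHLH100. bHLH101 did not pass without pair 1. It passed without pair 2, its largest difference, where -1.15 and -1.43 remained. The block changed no call of the 5 genes with all pairs. Without 1 library and without a block, fold changes ran from -1.39 to -0.68 for FIT, -3.59 to -1.82 for bHLH38, -3.12 to -1.71 for bHLH39, -3.41 to -1.76 for bHLH100 and -2.39 to -1.15 for bHLH101, the most negative without ntrc library 1 in each case, and none passed (limma, Benjamini-Hochberg adjusted p from 0.0577). With no counts deposited, counting error of low values such as those in adult leaves cannot be given.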
